A study of Mus musculus with 6 samples.

Results

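The transcripts of the 3 PIM kinases, Pim1, Pim2 and Pim3, were followed in mouse liver. Members were the target rows of the arrays whose description names proviral integration site 1, 2 or 3. These were 5 of 44170 target rows, with 3 rows for Pim1, 1 for Pim2 and 1 for Pim3. A row described as SFFV proviral integration 1 is that of another gene, the transcription factor PU.1, and was left out. The livers came from 6 wild-type male C57 BL/6 mice of 9 to 10 weeks, with 1 single-colour NimbleGen array each. In the LPS/GalN group, 3 mice received 0.01 µg of LPS with 20 mg of GalN. In the LPS group, 3 mice received 0.01 µg of LPS alone. LPS, or lipopolysaccharide, comes from the outer membrane of bacteria and acts through the receptor Tlr4. GalN, or D-galactosamine, is taken up by hepatocytes, depletes their uridine nucleotides and thereby slows RNA synthesis. Treatment lasted 2.5 h in both groups, and the replicates of a group came from separate treatments. Both groups had received LPS, and no untreated mice or mice given GalN alone were analysed here. A difference is therefore one between LPS with GalN and LPS without it, and not a response to LPS.

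PIM proteins are serine/threonine kinases named after the sites where murine leukaemia virus integrates in lymphomas. They fold into an active form without an activating phosphorylation, so the amount of PIM activity in a cell follows mainly from transcription of the genes and from turnover of the mRNA and protein. Cytokine receptors that signal through JAK kinases and STAT factors, and signals that reach NF-kB, are known to switch the genes on. The kinases phosphorylate regulators of cell death, of the cell cycle and of translation, among them the death-promoting protein BAD.

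The 3 genes lie on different chromosomes. On mm9, the build of the deposited files, the rows of Pim1 span chromosome 17 from 29630031 to 29632404 (short span), from 29628249 to 29632404 (middle span) and from 29627756 to 29632397 (long span). The spans overlap, so the 3 rows are repeated readings of 1 gene and not 3 independent members. Pim2 spans chromosome X from 7455511 to 7460558 and Pim3 chromosome 15 from 88692623 to 88696156. Each row summarises 3 probes. The files give the span of the gene and not the positions of the probes, so whether a probe lies in a coding exon or an untranslated region was not examined.

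The promoter windows of the genes are printed because Pim1 and Pim3 were both lower in LPS/GalN while Pim2 was not called. They are from RefSeq on GRCm38.p6, a different build from that of the files, and run from 250 bases before to 50 bases after the start of the gene, on the plus strand. Capitals mark matches to the GC box GGGCGG on either strand (CCGCCC on the other strand) and, in Pim3, to the NF-kB consensus. Each gene was matched by its symbol.
Pim3, chr15:88861944-88862243: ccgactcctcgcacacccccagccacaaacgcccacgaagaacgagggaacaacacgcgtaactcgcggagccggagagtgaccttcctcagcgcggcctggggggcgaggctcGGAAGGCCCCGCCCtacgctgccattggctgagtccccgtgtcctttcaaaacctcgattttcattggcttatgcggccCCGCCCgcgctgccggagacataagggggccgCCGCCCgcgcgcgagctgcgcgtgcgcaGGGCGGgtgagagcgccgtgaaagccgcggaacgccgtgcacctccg
Pim1, chr17:29490535-29490834: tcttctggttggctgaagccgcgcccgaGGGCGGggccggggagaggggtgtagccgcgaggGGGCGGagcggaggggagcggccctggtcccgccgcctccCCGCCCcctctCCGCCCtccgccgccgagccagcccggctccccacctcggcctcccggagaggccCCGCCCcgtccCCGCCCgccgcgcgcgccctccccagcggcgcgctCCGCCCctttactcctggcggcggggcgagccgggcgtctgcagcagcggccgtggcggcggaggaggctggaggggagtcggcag
Pim2, chrX:7878056-7878355: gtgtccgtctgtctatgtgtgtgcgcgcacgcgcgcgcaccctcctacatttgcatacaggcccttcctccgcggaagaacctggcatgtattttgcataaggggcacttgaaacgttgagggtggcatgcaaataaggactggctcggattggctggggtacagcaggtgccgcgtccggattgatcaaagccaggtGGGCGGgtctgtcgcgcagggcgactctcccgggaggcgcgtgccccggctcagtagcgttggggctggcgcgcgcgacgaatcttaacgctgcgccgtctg

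The 3 printed windows were richer in G and C than the median window. The Pim3 window held 69.0% G and C, the Pim1 window 81.3% and the Pim2 window 62.7%, against a median of 52.7% over 32851 windows. GC boxes numbered 4 in Pim3, 7 in Pim1 and 1 in Pim2, and 35.7% of all windows held at least 1. The table lists a second Pim1 window further into the gene (chromosome 17, 29492835 to 29493134), which held 0 GC boxes, was poorer in G and C than the median window and is not printed. Of the 3 genes, a match to the NF-kB consensus was found in the window of Pim3. It lies on the minus strand from base -136 to base -127, counted from the gene's first base as 1, and it overlaps the GC box at -128 to -123. Such a match is present in 8.46% of all windows. The STAT site TTCNNNGAA was in none of the Pim windows, and 8.30% of all windows hold it. The CCAAT box, present in 37.4% of windows on either strand, was found at 2 places in Pim3 and 1 in Pim2. These matches describe the letters of the windows and are not binding measurements.

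The arrays were alike in range, with a median intensity of 60.4 to 63.1. The row of random probes, used here as the background level, read 31.3 to 34.7. Across all target rows, which are not independent replicates, log2 values correlated at r = 0.952 to 0.970 within groups and 0.916 to 0.947 between groups. All 10 hepatocyte markers were above background, and their summed intensity was 342586 to 357360 in LPS/GalN and 345550 to 381653 in LPS. Most of this sum came from Alb, Apoa1, Ttr, Cps1, Serpina1a, Fgb and Cyp2e1. Their means were above 15 on the log2 scale in both groups, near the top of the scale, so the sum could hide a difference. Kupffer cell markers summed to 10113 to 12764 in LPS/GalN and 5924 to 8162 in LPS, endothelial markers to 13797 to 16313 and 6835 to 10258, and neutrophil markers to 1229 to 2256 and 3076 to 4354. B cell markers summed to 320 to 438 in LPS/GalN and 299 to 316 in LPS, and exocrine pancreas markers to 2287 to 3334 and 2504 to 3074. Most of the pancreas sum was Amy2, at 2023 to 3023 in LPS/GalN and 2137 to 2681 in LPS. Each other pancreas marker read 154 or less on every array. The limma fit called 3 of 9 endothelial markers higher and 2 of 10 neutrophil markers lower in LPS/GalN, and no marker of the other lists. The neutrophil markers called were S100a8 and S100a9, which make up most of the neutrophil sum on every array. Every measured marker was above background on at least 1 array. At an unadjusted p under 0.05, 6 of 9 Kupffer cell markers and 10 of 13 thymocyte and T cell markers were higher, and 7 of 10 intestine markers were lower. Of all 44170 rows, 3707 were higher and 4034 lower at that threshold. Some arrays stood apart. Thymocyte and T cell markers summed to 19080 and 10885 on LPS/GalN replicates 2 and 3, against 914 on replicate 1 and 660 to 1185 in LPS. Intestine markers summed to 29750 and 31852 on LPS replicates 1 and 2, against 2262 on replicate 3 and 1837 to 2148 in LPS/GalN. The part of these tissues in the results below was not tested, and the change of each Pim row is also given without these arrays. The differences between the Pim genes and the choice of nearest rows were not redone without them.

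Pim3 carried the largest difference of the family. Its intensity was 758, 519 and 621 in LPS/GalN replicates 1, 2 and 3, and 12871, 11439 and 10454 in LPS replicates 1, 2 and 3. Every LPS/GalN array lay far below every LPS array. The lowest of the 9 ratios between an LPS array and an LPS/GalN array was 13.8 and the highest 24.8. On the log2 scale, Pim3 averaged 9.29 ± 0.27 in LPS/GalN and 13.50 ± 0.15 in LPS (SD, n = 3 each). The change, LPS/GalN minus LPS, was -4.21 ± 0.24 (SE, 95% interval -4.75 to -3.66), an 18.5-fold lower intensity, with an adjusted p of 0.000214 by limma. Pim3 was still 15.1 to 21.9 times the background level in LPS/GalN, against 321 to 379 times in LPS, so its transcript remained measurable in every liver. Among the 1382 rows called lower on the whole array, the fall of Pim3 ranked 47th, and 54 of all 44170 rows had a more negative change.

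Pim1 was lower in LPS/GalN in each of its rows. The short-span row, the brightest over all arrays, read 408, 573 and 306 in LPS/GalN and 2118, 1671 and 1855 in LPS. The middle-span row read 345, 297 and 502 in LPS/GalN and 2184, 1419 and 1528 in LPS. The long-span row read 356, 332 and 409 in LPS/GalN and 1790, 1504 and 1406 in LPS. In all 3 rows the groups were separate, and the highest LPS/GalN array stayed under the lowest LPS array. Within LPS/GalN the rows did not share an order, since replicate 2 was the highest array in the short-span row and replicate 3 in the other two. Within LPS, replicate 1 was the highest in all 3.

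The short-span row averaged 8.70 ± 0.45 in LPS/GalN and 10.87 ± 0.17 in LPS (log2, SD, n = 3 each). Its change was -2.17 ± 0.28 (SE, 95% interval -2.82 to -1.53), 4.51-fold lower, with an adjusted p of 0.00465 by limma. The middle-span row gave -2.18 ± 0.29 (adjusted p = 0.00517 by limma) and the long-span row -2.10 ± 0.22 (adjusted p = 0.00208). The 3 rows thus gave the same size of change within their errors. The short-span row was 9.76 to 16.7 times the background level in LPS/GalN, against 49.4 to 62.3 times in LPS. Ranks of the 3 rows among the called falls were 474, 473 and 517.

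Pim2 was low and did not separate the groups. It read 142, 118 and 102 in LPS/GalN and 146, 144 and 84.6 in LPS. The groups overlapped, and the lowest array was LPS replicate 3. Pim2 averaged 6.90 ± 0.24 in LPS/GalN and 6.92 ± 0.45 in LPS (log2, SD, n = 3 each), a change of -0.02 ± 0.29 (SE), with an adjusted p of 0.981 by limma. The 95% interval of the change ran from -0.69 to 0.64, so differences within that range in either direction are not excluded with 3 arrays a group. Its intensity was 3.25 to 4.1 times the background level in LPS/GalN and 2.6 to 4.3 times in LPS. Pim2 is known for high levels in lymphoid cells. It was not higher on LPS/GalN replicates 2 and 3, the arrays with high thymocyte and T cell markers, than on LPS/GalN replicate 1. The part of lymphoid cells in the Pim2 signal was not tested.

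**Figure D1:**
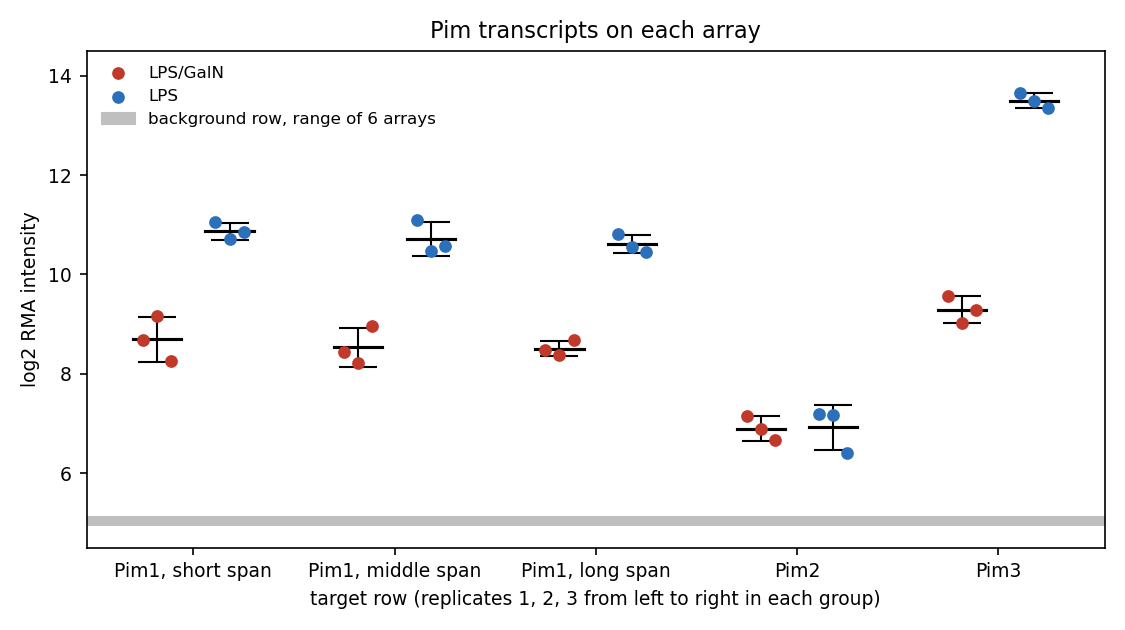
Log2 RMA intensity (vertical axis) of the 5 Pim target rows on each array, LPS/GalN in red and LPS in blue, with the mean and SD of 3 arrays in black and the range of the background row as a grey band. Pim3 and the 3 Pim1 rows separate the groups, and the Pim2 points of both groups overlap at 84.6 to 146 in linear intensity.

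Set against the whole array, 4 of the 5 Pim rows were called lower (limma, adjusted p under 0.05). They were the 3 Pim1 rows, which are repeated readings of 1 gene, and the Pim3 row. Of all rows, 3.13% were called lower and 0.654% higher. The same 4 rows had every LPS/GalN array below every LPS array, as had 11.1% of all rows. The change over all rows had a median of 0.05, with quartiles of -0.27 and 0.34 and a 5th percentile of -1.09. Both Pim1 and Pim3 lay beyond that percentile, and Pim2 lay between the quartiles. In bulk tissue, fewer cells of a type and less RNA per cell cannot be told apart.

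**Figure D2:**
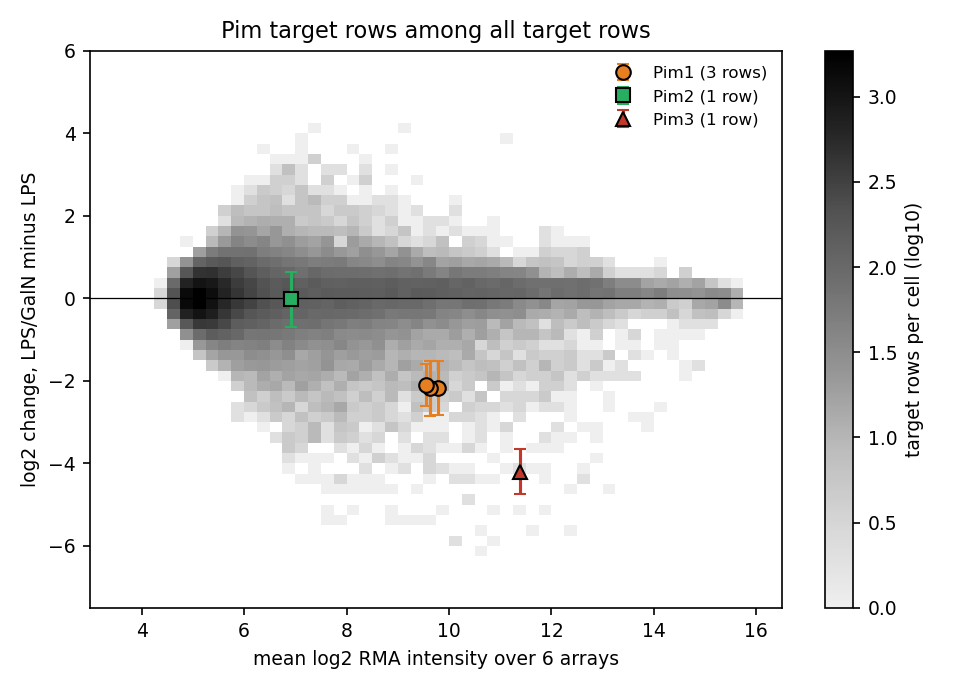
Change (LPS/GalN minus LPS, log2) against mean log2 intensity over 6 arrays for all 44170 target rows, shaded by the number of rows per cell on a log10 scale, with the Pim rows and their 95% intervals marked. Pim3 lies at -4.21, the 3 Pim1 rows lie between -2.18 and -2.10, and Pim2 lies at -0.02.

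The changes of the 3 genes were then set against each other. For each array, the log2 values of the brightest rows of a pair of genes were subtracted, and the group difference of these values was tested. The change of Pim3 minus that of Pim1 was -2.03 ± 0.38 (log2, SE), so the fall of Pim3 was 4.09 times that of Pim1. The change of Pim3 minus that of Pim2 was -4.19 ± 0.24, and that of Pim1 minus that of Pim2 was -2.15 ± 0.36. In each of the 3 pairs all LPS/GalN arrays lay on 1 side of all LPS arrays. The exact permutation test, two-sided, gave p = 0.1 for each pair, which is the smallest p that 3 arrays against 3 can give, and 0.1 after adjustment over the 3 pairs. No pair could therefore pass a threshold of 0.05 in this design. With 1 array left out, the difference between Pim3 and Pim1 stayed between -2.25 and -1.67.

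The calls of Pim1 and Pim3 held with any 1 array left out. With each array left out in turn, Pim3 passed in 6 of 6 cases with a change of -4.35 to -4.07, and each Pim1 row passed in 6 of 6 cases, the short-span row with -2.41 to -1.95. Without LPS replicates 1 and 2, the arrays with intestine markers, LPS was left with 1 array, whose spread is then taken from the other group. Pim3 was then -4.06 with an adjusted p of 0.0501 by limma, and the short-span row of Pim1 -2.16 with an adjusted p of 0.185. Without LPS/GalN replicates 2 and 3, the arrays with thymus markers, Pim3 was -3.93 with an adjusted p of 0.017 and the short-span row of Pim1 -2.20 with an adjusted p of 0.0565. The calls of all 3 Pim1 rows ended in both cases, and that of Pim3 ended in the first. Pim2 was 0.50 without LPS replicates 1 and 2 and 0.23 without LPS/GalN replicates 2 and 3, and was not called in either case.

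**Figure D3:**
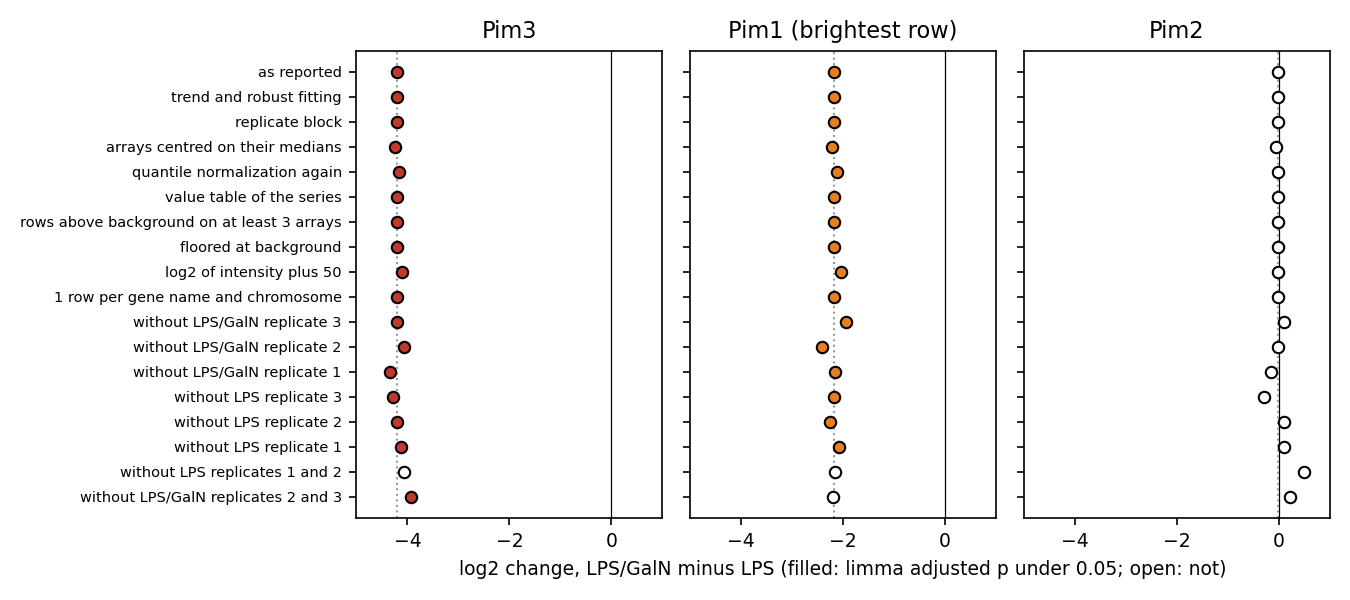
Log2 change (horizontal axis, LPS/GalN minus LPS) of Pim3, the brightest Pim1 row and Pim2 as reported and under each of 17 other settings (vertical axis), with filled points for an adjusted p under 0.05. Pim3 stays between -4.35 and -3.93 and Pim1 between -2.41 and -1.95, and Pim2 lies on both sides of 0.

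Genes around the PIM kinases were grouped into 10 lists holding 170 measured genes in all, of which 39 were lower and 2 higher in LPS/GalN (limma, adjusted p under 0.05 over all rows). Where a list is said to have 0 genes higher by limma, 0 to 3 of its members were higher at an unadjusted p under 0.05. At that threshold, 3707 of all 44170 rows were higher and 4034 lower. Going by the brightest row of each gene, 1 of the 170 had a more negative change than Pim3, as had 0.122% of all rows. This was Tnfaip3, the gene of the NF-kB inhibitor A20, at -4.62 ± 0.22 (SE, 24.6-fold lower). A dimmer row was also beyond the -4.21 of Pim3 in Atf3 (-4.29) and in Saa1 (-4.26), an acute phase gene named after its values were seen, each with 2 of 2 rows called.

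Upstream of the PIM genes, receptors, kinases and factors of the JAK-STAT route gave 4 of 23 genes lower and 0 higher, with a median change of 0.10. The factor gene Stat2 was 3.34-fold lower and the kinase gene Jak2 3.74-fold lower. The Jak2 call (adjusted p = 0.0256 by limma) was kept in 1 of 6 cases with 1 array left out. Stat5a was 3.46-fold lower in its brightest row, with 1 of its 4 rows called, while Stat5b had a change of 0.39 ± 0.22 (SE, adjusted p = 0.423). Stat3, the main factor downstream of interleukin-6 in liver, was at least 2.58-fold lower, since its mean of 15.10 in LPS is near the top of the scale.

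Genes that STAT factors are known to drive, other than the PIM genes, were lower in 11 of 15 cases and higher in 0, with a median of -1.99. The feedback inhibitor genes Socs3 and Cish were 10.9-fold and 8.84-fold lower, and Bcl3, which encodes an atypical NF-kB inhibitor, was 10.2-fold lower. Junb, a subunit gene of the AP-1 factor, was 5.62-fold lower in its brightest row, with 2 of its 3 rows called. Going by brightest rows, none of these 15 genes had a more negative change than Pim3, and 6 had a more negative change than Pim1. Of all rows, 0.122% were more negative than Pim3 and 1.372% more negative than the short-span row of Pim1. The median of this list was -1.74 without LPS replicates 1 and 2, and -2.51 with LPS/GalN replicates 2 and 3 left out.

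From Tlr4 to NF-kB, 11 of 21 genes were lower and 0 higher, with a median of -1.39. Besides Tnfaip3, the adaptor gene Myd88 was 5.45-fold lower, and the NF-kB subunit gene Nfkb2 was 4.07-fold lower, with 2 of its 3 rows called. The subunit gene Rela was 6.31-fold lower in the row matched to it by name. A brighter row, described as NF-kB RelA splice variant 1 and not matched to the list by that name, was 4.22-fold lower. The count was 6 without LPS replicate 1 and 7 without LPS replicate 2. The median was -1.11 without LPS replicates 1 and 2 and -1.71 without LPS/GalN replicates 2 and 3. The receptor gene Tlr4 was not called.

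Transcripts known to be made early and to decay fast, as PIM transcripts do, were lower in 7 of 18 cases and higher in 0, with a median of -1.004. Atf3, a stress-induced factor gene, was 15.2-fold lower. Zfp36, which encodes a protein that speeds mRNA decay, was 4.63-fold lower, and Ppp1r15a, a phosphatase subunit gene of the stress response, was 4.58-fold lower. The other 11 genes of this list were not called, Fos among them. The median was -1.07 without LPS replicates 1 and 2, and -1.48 with LPS/GalN replicates 2 and 3 left out.

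Downstream of the kinases, genes of known PIM substrates were measured in 23 cases. By brightest rows, 3 were lower and 0 higher, with a median of 0.13. Of all rows, dim ones included, 3.13% were lower, and the median of all rows was 0.05. When only the 18076 rows at 50 or more on all arrays were fitted, 1660 were called lower and 758 higher. A dimmer row was called higher in Runx1 (1 of 4 rows) and lower in Mdm2 (1 of 2 rows). At an unadjusted p under 0.05 by limma, 6 of the 23 genes were lower and 3 higher by brightest rows. Of all 44170 rows, 4034 were lower and 3707 higher at that threshold. The 3 called lower were Nfatc1, a transcription factor gene (3.55-fold), Map3k5, the gene of the stress kinase ASK1 (12.04-fold), and Myc (2.41-fold). Map3k5 varied among LPS/GalN arrays, at 7.39 ± 1.44 in LPS/GalN and 10.97 ± 0.13 in LPS (log2, SD, n = 3 each), and passed in 4 of 6 cases with 1 array left out. Myc passed in 1 of 6. The count of lower genes was 1 without LPS replicate 1 or LPS replicate 2. The count of higher genes was 3 without LPS/GalN replicate 1, and it was 1 when LPS/GalN replicate 3 was left out. The BAD gene Bad had a change of 0.38 ± 0.22 (SE, adjusted p = 0.426 by limma). Among cell cycle inhibitors, Cdkn1a had a change of -1.34 ± 0.45 (adjusted p = 0.17) and Cdkn1b of 1.34 ± 0.56 (adjusted p = 0.269). The translation factor gene Eif4b had a change of 0.08 ± 0.21 (adjusted p = 0.892).

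Proteins that hold PIM kinases stable or send them to degradation are encoded by 10 measured genes, with 1 lower and 0 higher and a median of 0.20. This was the heat shock gene Hspa1b, 4.48-fold lower. The heat shock gene Hspa1a of the same list was not called, at 0.485 ± 0.254 (SE, adjusted p = 0.377 by limma). Genes of cap-dependent translation gave 0 of 10 called in either direction, with a median of 0.06. At an unadjusted p under 0.05 by limma, 1 of the 10 was lower and 0 were higher.

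Related kinases were mostly not called. The AKT, SGK and PI3K-mTOR route, whose kinases share many substrates with PIM kinases, had 2 of 14 genes lower and 0 higher, with a median of 0.02. These were Pik3r1, a regulatory subunit gene of PI3K (3.45-fold, 1 of 2 rows called), and the kinase gene Sgk2 (2.74-fold), which passed in 1 of 6 cases with 1 array left out. Akt1 had a change of 0.63 ± 0.21 (SE, adjusted p = 0.176 by limma). Other kinases of the CAMK group, to which PIM kinases belong, had 2 of 32 lower and 1 higher, with a median of 0.07. Nuak2 and the pseudokinase gene Trib1 were 4.68-fold and 4.75-fold lower, and Camk2g was 2.74-fold higher in its brightest row. With 1 array left out, Nuak2 passed in 2 of 6 cases, Trib1 in 1 and Camk2g in 1. By brightest rows, Pim3 had a more negative change than any of these 32 kinases, and Pim1 than 30 of them. Of all rows, only 0.122% were more negative than Pim3 and 1.372% more negative than the short-span row of Pim1.

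The BCL2 family, whose members promote or block cell death and which holds the PIM substrate BAD, had 2 of 14 genes lower and 1 higher, with a median of -0.41. Bcl2l1, the gene of the survival protein BCL-XL, was 3.16-fold lower, and Bid, a death-promoting gene, was 2.80-fold lower and passed in 4 of 6 cases with 1 array left out. Bcl2 was 3.38-fold higher in 1 of its 2 rows and passed in 2 of 6. The median of the family was -0.24 without LPS/GalN replicate 1 and -0.26 without LPS replicate 2. It was -0.003 without LPS replicates 1 and 2, and -0.54 with LPS/GalN replicates 2 and 3 left out.

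**Figure D4:**
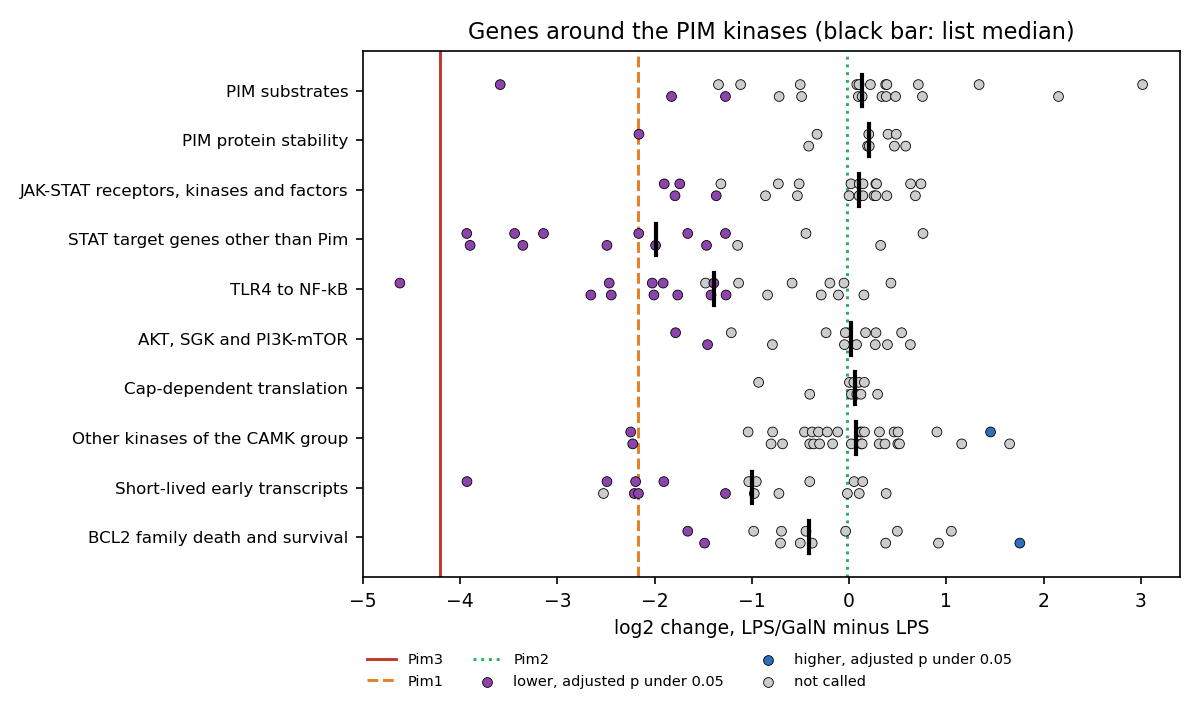
Log2 change (horizontal axis, LPS/GalN minus LPS) of each measured gene of the 10 lists, purple where called lower, blue where called higher and grey where not called, with the list median as a black bar. Vertical lines mark Pim3 at -4.21, the brightest Pim1 row at -2.17 and Pim2 at -0.02; the medians of the STAT target list (-1.99) and the TLR4 to NF-kB list (-1.39) lie furthest to the left.

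The genes most like Pim3 and Pim1 over the 6 arrays were taken by the root mean square difference of log2 values, each centred on its own mean, among 11253 named rows above background on all arrays. With groups this far apart the measure mostly finds rows with a change of the same size, so it is a description and was not tested. For Pim3 the nearest were interferon gamma inducible protein 47 (difference 0.116, change -4.22), phosphodiesterase 4B (0.122, change -4.15), growth arrest and DNA-damage-inducible 45 gamma (0.156, change -4.47), macrophage activation 2 like (0.164, change -4.01) and chemokine (C-C motif) receptor-like 2 (0.174, change -4.06). The first encodes an interferon-induced GTPase and the second an enzyme that degrades cyclic AMP. For Pim1 they were the transcription factor BTB and CNC homology 1 (0.177, change -2.36), NF-kB RelA splice variant 1 (0.186, change -2.08), phosphoglycerate mutase 2 (0.192, change -2.09), phospholipid scramblase 2 (0.196, change -1.999) and the granulocyte growth factor colony stimulating factor 3 (0.205, change -1.98). Pim1 and Pim3 themselves were 1.09 apart by this measure.

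**Figure D5:**
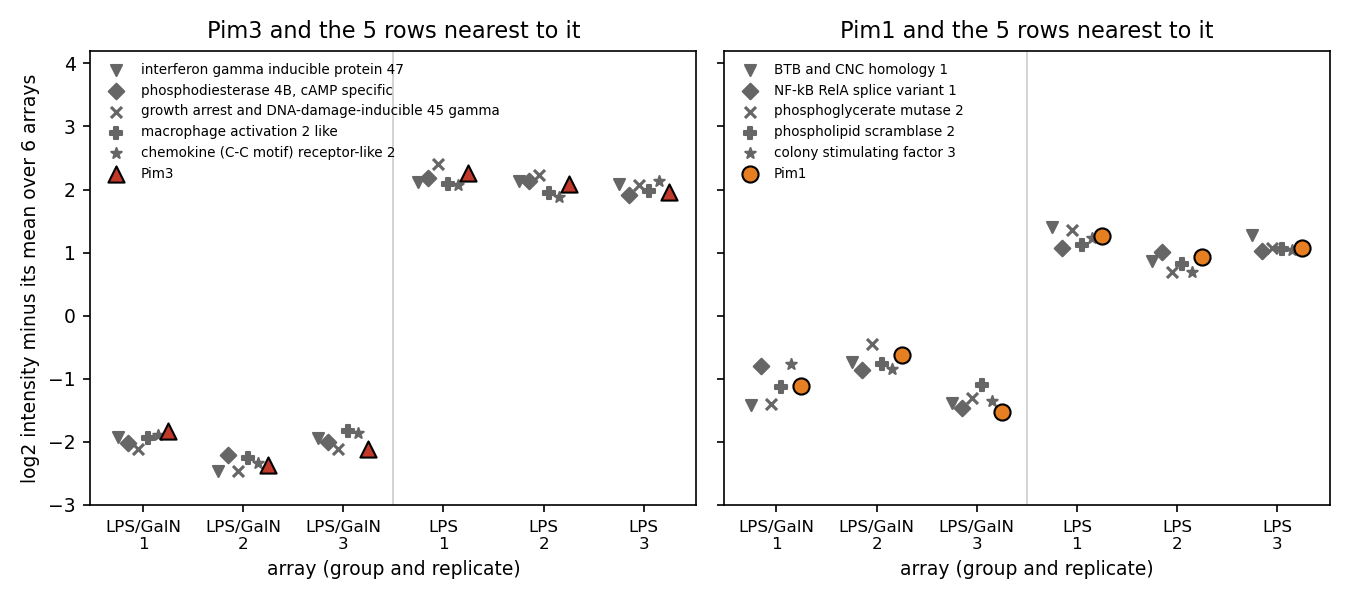
Log2 intensity minus its mean over 6 arrays (vertical axis) on each array (horizontal axis) for Pim3 and Pim1, coloured, and the 5 nearest rows of each, grey. Pim3 and its 5 rows all lie near -2 in LPS/GalN and near 2 in LPS, and Pim1 and its 5 rows lie near -1 and 1.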

How the data were processed

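Per the labels, total RNA of 6 livers was labelled with Cy3 and hybridised to NimbleGen arrays, 1 liver per array, and groups and replicate numbers follow the labelled treatment and the titles. The authors deposited RMA intensity per array on the linear scale, per the submitters' processing notes. RMA, robust multi-array average, subtracts background, brings arrays to a common distribution and combines a target's probes. Neither its version nor its settings appear in the labels. A global rise or fall of RNA would have been removed by it. A deposited value table of 18076 rows served as an alternative.

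Log2 intensity of all 44170 target rows was compared with limma 3.58.1 in R 4.3.3 (lmFit, then eBayes without trend or robust fitting), group as the only term, two-sided, Benjamini-Hochberg adjustment over all rows, threshold 0.05, no filter. The fit was tested on simulated data. The precision is limited by 3 arrays a group. A row of 5000 random probes gave the background.

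List genes were named by description, identifier or a hand-made table of full names; 246 of 265 were measured, and 109 had several matched rows, of which the brightest over all arrays was used. A row under another name, as for Rela, was not joined. Named genes were, by rule, up to 4 called genes with the smallest p per list and up to 2 in the other direction, 11 fixed genes, and 5 nearest rows each for Pim1 and Pim3. Pearson's r of these rows is not given because the groups form separate clusters. The PIM genes, lists and rules were chosen with earlier results of these data known. Replicate numbers are shared by the groups, but the deviations of same-numbered arrays from their group means correlated at 0.002, -0.004 and 0.020, so the numbers were not taken to pair the samples. Alternatives were 17 settings: other fitting, scaling, filters and tables, and arrays left out.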

Additional observations from a re-analysis of the deposited data

How the results depend on the processing

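With all 6 arrays kept, Pim3 and the 3 Pim1 rows passed the threshold under every alternative that gave them a value (trend and robust fitting, replicate block, centring, quantile normalization again, the value table, a background filter, a background floor, an offset of 50, and 1 row per gene), and Pim2 under none. With 1 array left out the change of Pim2 ran from -0.28 to 0.11 (0.095 without LPS/GalN replicate 3, 0.103 without LPS replicate 2, 0.113 without LPS replicate 1), and it was 0.498 without LPS replicates 1 and 2 and 0.23 without LPS/GalN replicates 2 and 3. With these 2 pairs left out in that order, the short-span Pim1 row was -2.16 and -2.20, the middle-span row -2.04 and -2.28, and the long-span row -1.95 and -2.13, and their adjusted p-values by limma rose above the threshold with 1 array in a group (0.0565 to 0.185); Pim3 was -4.06 (0.0501) and -3.93 (0.017). Eif4b was -0.015 without LPS replicate 3, and ran up to 0.164 with 1 array left out.

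Rows called lower over the whole array numbered 831 to 1358 with 1 array left out, 0 without LPS replicates 1 and 2 (2817 at an unadjusted p under 0.05) and 350 without LPS/GalN replicates 2 and 3. Rows called higher numbered 53 to 804, 0 (1223 unadjusted) and 26 in the same cases, 1093 with trend and robust fitting, 758 with the value table and 697 with the offset. The replicate block, for numbers that were not taken to pair the arrays, gave 1030 lower and 144 higher and changed no call of a Pim row. The causes were not tested. Centring moved the median of all rows to 0.01, against 0.05.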
